A study of Mus musculus with 9 samples.

Results

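The transcripts described here are the 7 messenger RNAs of complex I that the mitochondrial genome encodes, ND1, ND2, ND3, ND4, ND4L, ND5 and ND6. They were found by gene name among the 36413 gene names and 55681 probes of a mouse expression array, and each of the 7 had 1 probe. RNA was measured in extracellular vesicles (EVs), small membrane particles released by cells, from mouse embryonic fibroblasts (MEFs). EVs of PBS-treated MEFs were measured on 5 arrays and EVs of control MEFs on 4 arrays. PBS is phosphate-buffered saline. No genotype, strain, age or treatment time is given for either group, and it is not stated whether PBS treatment included electric pulses, as the transfections of the study did. Nothing in the labels ties the replicates to separate cultures, so the spread behind each p-value is that between these samples and may be technical.

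Complex I, NADH:ubiquinone oxidoreductase, takes electrons from NADH into the respiratory chain and pumps protons across the inner mitochondrial membrane. The ND proteins are core subunits of its membrane arm and are made inside the organelle, while the remaining subunits are encoded in the nucleus and imported. Both strands of the mitochondrial genome are transcribed as long precursors that are cut into single transcripts, and ND6 is the only protein gene among them that lies on the light strand.

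The probes are single stretches of 60 bases, so each value below stands for 1 short window of a transcript. They are printed because ND6 is read from another strand than the rest, and the capitals mark every G. The sequences and the mm9 positions are those of the array design.
ND1: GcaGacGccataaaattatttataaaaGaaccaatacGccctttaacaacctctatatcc
ND2: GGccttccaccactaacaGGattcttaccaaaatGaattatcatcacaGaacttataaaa
ND4: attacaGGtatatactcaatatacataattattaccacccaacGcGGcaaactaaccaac
ND5: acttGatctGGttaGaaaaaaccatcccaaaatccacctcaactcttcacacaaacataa
ND3: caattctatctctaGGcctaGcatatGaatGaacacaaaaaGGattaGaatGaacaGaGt
ND4L: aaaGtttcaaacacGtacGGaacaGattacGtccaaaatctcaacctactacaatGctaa
ND6: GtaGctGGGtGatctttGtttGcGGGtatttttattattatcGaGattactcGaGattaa

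The ND6 probe held 15 G and 6 C, whereas the other 6 held 4 to 11 G and 10 to 18 C. The ND3 probe also held more G than C, at 11 and 10, so these counts alone do not tell its strand. All 7 had a like share of G and C together, between 35.0% and 36.7%. The array annotation placed 5 of them on the mitochondrial genome. These were ND1 at chrM:2898-2957, ND2 at chrM:4670-4729, ND4 at chrM:11370-11429 and ND5 at chrM:13402-13461, all on the plus strand, and ND6 at chrM:13552-13611 on the minus strand. The ND5 and ND6 probes were separated by 90 bases and lay on opposite strands.

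The annotation placed the other 2 probes on the minus strand of a nuclear chromosome, ND3 at chr1:24619613-24619672 and ND4L at chr1:24619243-24619302, although their descriptions name the mitochondrial genes. The mouse nuclear genome is known to carry copies of mitochondrial DNA, and RNA from such a copy and RNA from the organelle cannot be told apart by a probe that matches both. The ND4L probe ends in atGctaa, 7 bases over which the reading frames of ND4L and ND4 overlap, from the start codon of ND4 (atG) to the stop codon of ND4L (taa), and mammalian ND4L and ND4 are known to stay together on a bicistronic RNA. No other probe among the 55681 shared a stretch of 20 bases with any of the 7 on either strand.

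Every ND transcript was lower in EVs of PBS-treated MEFs than in EVs of control MEFs, and the groups did not overlap for any of them. The differences ran from -1.74 for ND4L to -3.17 for ND3 on the log2 scale, with a median of -2.21. The signal is the background-corrected brightness of a probe, given as log2 relative to the 75th percentile of the array over the 8422 probes that rose well above background on every array. All 7 probes were well above background on all 9 arrays. In limma over 17765 probes, 7 of 7 passed an adjusted p of 0.05, against 52.4% of all probes in either direction and 21.0% in the lower direction. Among the tested probes well above background on every array, 28.0% were called lower. The groups failed to overlap in this direction for 17.8% of all probes. The median of all tested probes was -0.00 on this scale. In RNA of bulk vesicles, fewer vesicles that carry a transcript and less of it in each vesicle cannot be told apart.

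**Figure D1:**
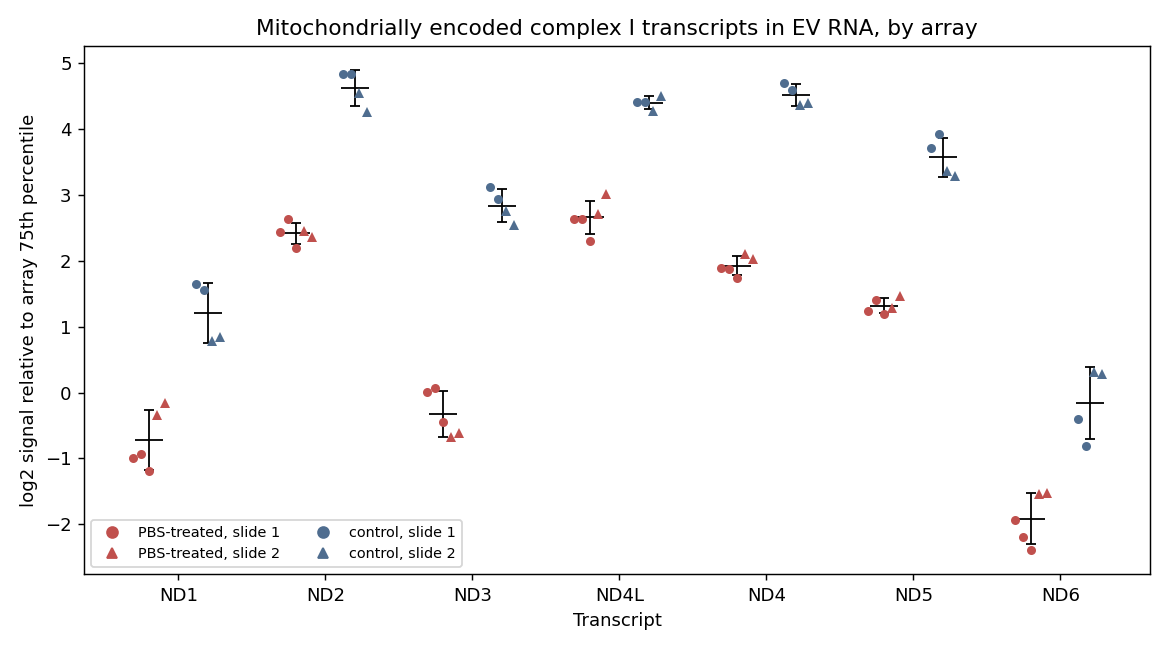
Log2 signal of the 7 ND transcripts relative to the 75th percentile of each array, for PBS-treated (red, left) and control (blue, right) EVs. Each point is 1 array, circles are slide 1 and triangles slide 2, and bars give the mean and SD (n = 5 and 4). The PBS-treated points lie below the control points of the same transcript in all 7 cases. The controls separate by slide for every transcript but ND4L, with slide 1 higher except for ND6.

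ND2, ND4 and ND5 are the antiporter-like subunits that make up most of the membrane arm and move protons. ND2 lay at 2.44, 2.64, 2.19, 2.46 and 2.35 in PBS-treated EVs, replicates 1 to 5, against 4.84, 4.84, 4.55 and 4.27 in control EVs, replicates 1 to 4. The PBS-treated arrays were tightly grouped, and the lowest control array stood 1.63 above the highest of them. ND2 fell by 2.21 ± 0.16 on the log2 scale (SE, adjusted p = 1.48e-05), a signal 4.62-fold lower. ND4 lay at 1.89, 1.88, 1.74, 2.10 and 2.03 in PBS-treated EVs, against 4.71, 4.60, 4.37 and 4.39 in control EVs. Its spread was narrow in both groups (SD 0.14 and 0.16), and the gap between them was 2.27. The difference of -2.59 ± 0.13 (SE, adjusted p = 2.53e-06) had the smallest adjusted p of the 7. ND5, the subunit at the far end of the membrane arm, lay at 1.24, 1.41, 1.19, 1.28 and 1.47 in PBS-treated EVs, against 3.71, 3.92, 3.36 and 3.29 in control EVs. The control arrays of slide 1 were the highest, and none came within 1.82 of a PBS-treated array. ND5 differed by -2.25 ± 0.16 (SE, adjusted p = 1.29e-05), close to ND2.

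ND1 and ND3 lie at the heel of the membrane arm, where ubiquinone binds. ND3 had the widest difference of the 7. Its values were 0.01, 0.07, -0.44, -0.68 and -0.61 in PBS-treated EVs, against 3.12, 2.94, 2.76 and 2.54 in control EVs, which left a gap of 2.46. ND3 fell by 3.17 ± 0.21 (log2, SE, adjusted p = 9.38e-06) and was 8.99-fold lower. Only 2.65% of the tested probes had a lower difference. ND1 lay at -0.99, -0.93, -1.19, -0.34 and -0.16 in PBS-treated EVs, against 1.64, 1.55, 0.78 and 0.85 in control EVs. Its groups came closer on slide 2, where PBS-treated replicates 4 and 5 were hybridised together with control replicates 3 and 4. The difference was -1.93 ± 0.29 (SE, adjusted p = 0.000624) over all arrays, -2.63 within slide 1 and -1.06 within slide 2. Whether the slides differ was not tested.

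ND4L and ND6 are small membrane-embedded subunits that lie between ND1 and the antiporter-like subunits. ND4L had the smallest difference of the 7, with 2.64, 2.64, 2.31, 2.71 and 3.01 in PBS-treated EVs, against 4.41, 4.41, 4.27 and 4.51 in control EVs. The controls differed little (SD 0.10), and the gap was 1.26. ND4L fell by 1.74 ± 0.15 (log2, SE, adjusted p = 3.52e-05), a 3.33-fold lower signal. ND6, the light-strand transcript, lay at -1.93, -2.20, -2.39, -1.55 and -1.52 in PBS-treated EVs, against -0.40, -0.82, 0.32 and 0.27 in control EVs. The gap of 0.70 was the smallest of the 7. ND6 differed by -1.76 ± 0.30 (SE, adjusted p = 0.00119), with -1.56 within slide 1 and -1.83 within slide 2.

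In control EVs, ND6 differed between slides in another direction than the other ND transcripts. Its controls were 0.91 higher on slide 2 than on slide 1, while those of ND1 were 0.78 lower, those of ND5 0.49 lower and those of ND4L within 0.02. This direction was not particular to ND6 among mitochondrially encoded messenger RNAs. Controls of COX2, COX1 and COX3 were higher on slide 2 by 0.40, 0.23 and 0.03, and those of CYTB, ATP6 and ATP8 were lower. These differences between pairs of arrays were not tested. In PBS-treated EVs the slide 2 arrays were higher for ND1 by 0.79 and for ND6 by 0.64, and lower for ND3 by 0.52. Deviations from the group means over the 9 arrays are a description only, since these points share slides and a scaling. Among the 15 pairs without ND6 the correlation of these deviations was above 0 in 13, with a median of 0.58 and a highest value of 0.95 for ND1 with ND4. Among the 6 pairs with ND6 it was above 0 in 1, ND4L at 0.47, with a median of -0.26 and a lowest value of -0.60 for ND3.

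How far the ND transcripts fell depended on the scaling, while each stayed below 0 under all 27 alternatives run. Scaled to the 7 spike-in probes, which detect RNAs added before labelling, the median of all tested probes shifted to 1.28. Of the ND probes 5 of 7 passed, beside 907 of all 17765 tested probes called lower. ND3 then differed by -1.89, ND4 by -1.31, ND5 by -0.97, ND2 by -0.93 and ND4L by -0.46. ND1 at -0.65 (adjusted p = 0.0820) and ND6 at -0.48 (adjusted p = 0.212) did not pass. Each of the 7 remained lower than the median of all probes by the same amount as in the scaling above. With no scaling between arrays, an alternative added after the data were seen, the median of all probes lay at 1.18. Of the ND probes 2 of 7 passed, ND3 at -1.99 and ND4 at -1.41, beside 754 of 17765 probes called lower.

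The unscaled brightness shows where the groups touched. The ND1 probe read 758.3, 1144, 625.4, 866.4 and 1035 units in PBS-treated EVs, against 2461, 3002, 779.8 and 780.4 units in control EVs. On slide 2 both controls were thus below both PBS-treated arrays for ND1. Across the slides, ND2 and ND5 overlapped too, since PBS-treated replicate 2 read 13568 and 5794 units, against 10650 and 8347 units for ND2 and 4645 and 4254 units for ND5 in control replicates 3 and 4. Within each slide these probes did not overlap. ND4L read 9404, 13624, 7072, 7160 and 9298 units in PBS-treated EVs, against 16740, 21858, 8748 and 9868 units in control EVs, with an overlap on slide 2. ND6 read 271.8 to 476.2 units in PBS-treated EVs and 524.6 to 596.7 units in control EVs, with no overlap. Control replicates 3 and 4 were the dimmest arrays of the series, with 75th percentiles of 453.4 and 433.7 units, compared with 789.1 and 1026 units in control replicates 1 and 2 and 1095 to 2183 units in PBS-treated EVs. Without these 2 arrays 7 of 7 ND probes passed at a median of -2.42, beside 3703 of 17765 probes called lower.

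**Figure D2:**
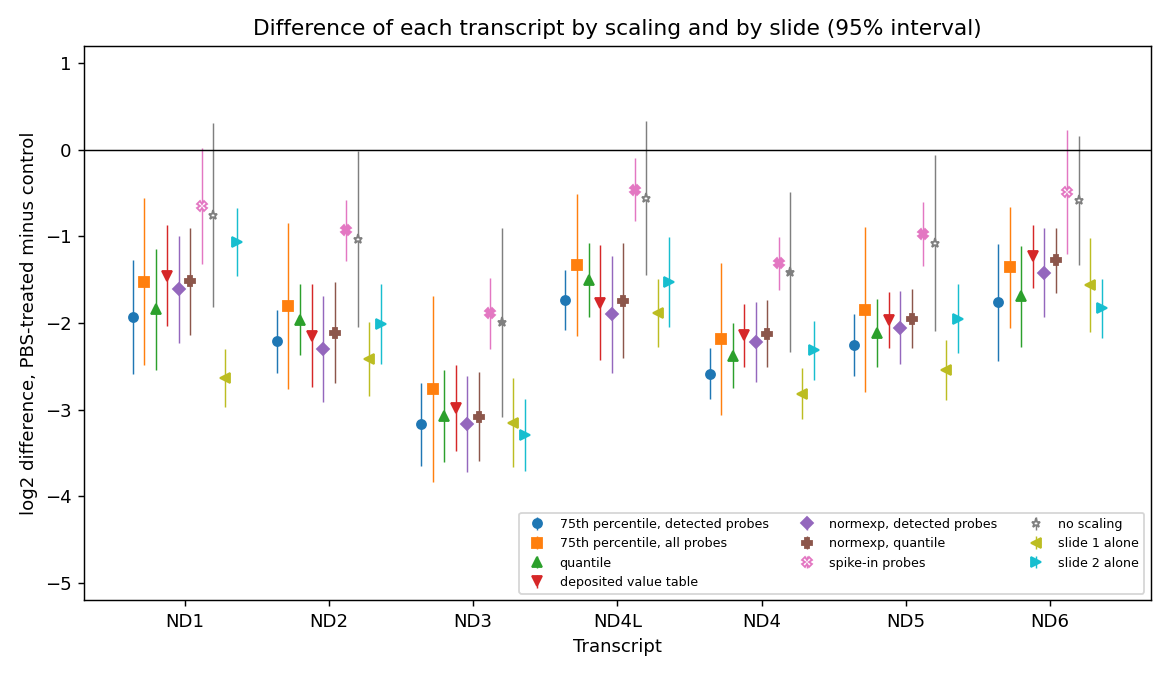
Log2 difference (PBS-treated minus control) of each ND transcript under 8 scalings and background corrections and within each slide, with 95% intervals from limma. Filled points passed an adjusted p of 0.05 and open points did not. Every point lies below 0, and the open ones belong to spike-in scaling (ND1 and ND6) and to no scaling (ND1, ND2, ND4L, ND5 and ND6).

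The ND transcripts did not all fall by the same amount. The difference between 2 probes within an array is the same under every scaling that shifts a whole array, so unequal change was tested on it over the 21 pairs with a two-sided exact permutation test (smallest possible p = 0.00794) and Benjamini-Hochberg adjustment over the pairs. Of the 21 pairs, 7 passed. ND3 fell more than ND4L by 1.43 (adjusted p = 0.0333), more than ND2 by 0.96 (adjusted p = 0.0333) and more than ND5 by 0.92 (adjusted p = 0.0476) in exact permutation tests. ND4 fell more than ND4L by 0.85, more than ND1 by 0.66 and more than ND2 by 0.38 (adjusted p = 0.0333 each in exact permutation tests). The unequal change of ND1 and ND4 was 0.18 within slide 1 and 1.25 within slide 2. That of ND2 and ND4 was -0.08 with normexp correction under the main scaling, 0.01 with normexp and quantile normalization and -0.00 in the deposited table, and passed in none of them. ND5 fell more than ND4L by 0.51 (exact permutation, adjusted p = 0.0476). This difference was 0.15 with normexp correction under the main scaling, 0.21 with normexp and quantile normalization and 0.20 in the deposited table. It passed in none of these settings (exact permutation, adjusted p = 0.808, 0.754 and 0.781).

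The unequal change of ND4 and ND4L, which are known to share an RNA, depended on the background correction. ND4 minus ND4L averaged -0.73 ± 0.16 in PBS-treated EVs (SD, n = 5) and 0.12 ± 0.18 in control EVs (SD, n = 4). The unequal change of this pair was -0.93 within slide 1 and -0.79 within slide 2. It was -0.32 with normexp correction under the main scaling, -0.38 with normexp and quantile normalization and -0.38 in the deposited table (exact permutation, adjusted p = 0.677, 0.604 and 0.594). ND2 and ND5 changed by amounts 0.04 apart (exact permutation, adjusted p = 0.711), and ND4L and ND6 by amounts 0.02 apart (exact permutation, adjusted p = 0.905), which does not show that they moved alike. None of the 6 pairs with ND6 passed under the main scaling, ND3 against ND6 included, at -1.41 (exact permutation, adjusted p = 0.0556). ND3 and ND4 each passed against ND6 with quantile normalization, with normexp and quantile normalization and in the deposited table, at -1.38 to -1.81 for ND3 and -0.68 to -0.91 for ND4, and ND5 passed against ND6 in the deposited table, at -0.73. With normexp background correction under the main scaling, 0 of 21 pairs passed, and 4 of 21 passed with normexp and quantile normalization. With any 1 array left out 0 passed, with a smallest possible p of 0.0179 or 0.0286 before adjustment.

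**Figure D3:**
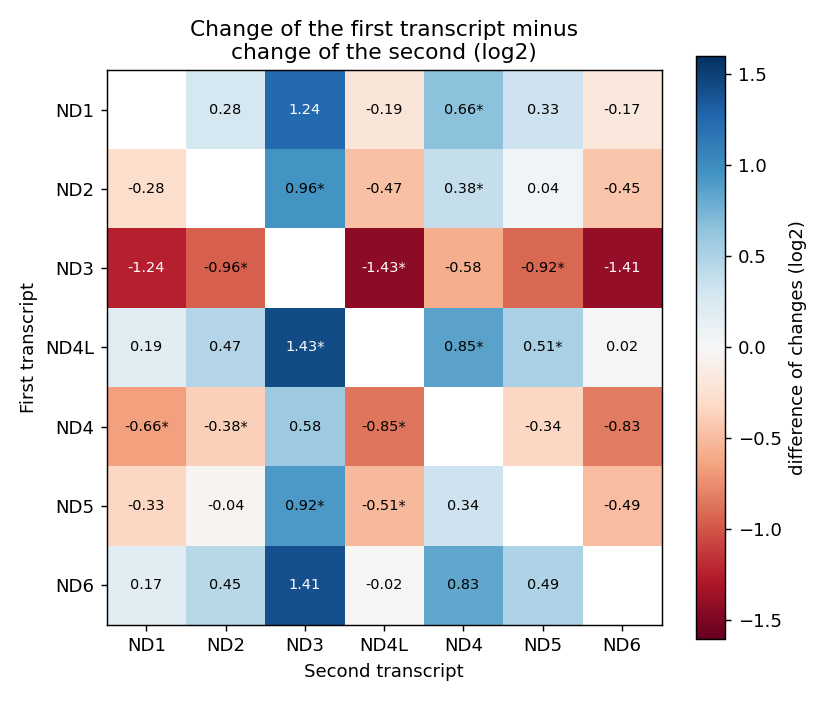
Change of the transcript in the row minus change of the transcript in the column (log2, PBS-treated minus control), for all pairs of ND transcripts over 9 arrays. Red means that the row transcript fell more, and an asterisk marks the 7 pairs with adjusted p under 0.05 in the exact permutation test. The ND3 row is below 0 throughout, the ND4 row is below 0 but for ND3, and the ND4L row is above 0 throughout.

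The other mitochondrially encoded messenger RNAs fell as well. COX1, COX2 and COX3 encode core subunits of complex IV, CYTB that of complex III, and ATP6 and ATP8 membrane subunits of ATP synthase. All 6 passed in the lower direction, with a median of -2.46, and the differences were -3.80 for COX1, -2.64 for CYTB, -2.49 for ATP6, -2.43 for COX3, -2.10 for ATP8 and -1.96 for COX2. The ATP6 probe carries only a transcript identifier, and its description supplied the gene. No probe of the 2 mitochondrial ribosomal RNAs was examined. As with ND3 and ND4L, the annotation put 4 of these 6 probes on chromosome 1, all but COX1 and CYTB.

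Pairs of an ND transcript with one of these 6 were added after the values were seen. Of 42 such pairs, 14 passed the exact permutation test after adjustment over the 42. COX1 fell more than 5 ND transcripts, by 2.06 against ND4L, 2.04 against ND6, 1.87 against ND1, 1.59 against ND2 and 1.55 against ND5. Its difference from ND4 was 1.21 and from ND3 0.63, and these did not pass (exact permutation, adjusted p = 0.0588 and 0.357). ND4L fell less than CYTB by 0.90, than ATP6 by 0.75 and than COX3 by 0.69, and ND1 less than CYTB by 0.71 and than ATP6 by 0.56. ND5 fell less than CYTB by 0.39, and ND4 fell more than ATP8 by 0.48. ND3 fell more than COX2 by 1.21 and ND4 more than COX2 by 0.63 (exact permutation, adjusted p = 0.0417 and 0.0476). The slides differed in size for some pairs. ND4 minus COX2 changed by -1.08 within slide 1 and -0.13 within slide 2. ND5 minus CYTB changed by 0.53 and 0.18, and ND1 minus ATP6 by 0.24 and 0.95. These 42 pairs were tested under the main scaling only, without other background corrections, the deposited table or arrays left out. Their test took no account of slide.

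Nuclear-encoded genes of the same pathway went in both directions. Of 38 tested genes listed by name as nuclear-encoded complex I subunits, Ndufa4 among them, 19 rose, 2 fell and 17 did not pass. Their median was 0.49. Over all probes 31.5% were called higher and 21.0% lower, and the 52.4% called in either direction is near the share of this list. Among probes well above background on every array 34 of the genes were tested, of which 20 rose, 3 fell and 11 did not pass, against 32.5% higher and 30.1% lower of all such probes. Ndufs1, which carries iron-sulphur clusters of the electron-accepting arm, rose by 2.06 ± 0.19 (log2, SE, adjusted p = 4.41e-05). Ndufa9, a subunit beside the quinone site, rose by 1.81 ± 0.15 (adjusted p = 2.8e-05), and Ndufb6, of the membrane arm, by 0.83 ± 0.11 (adjusted p = 0.000282). Ndufb5, of the membrane arm and named after its value was seen, fell by 0.48 on the log2 scale. That call was lost with quantile normalization (-0.41), in the deposited table (-0.21) and with normexp correction (-0.27). With normexp correction under the main scaling the median of all tested probes was -0.525. In spike-in scaling Ndufb5 was higher, at 0.80, and 38 of 38 genes rose. The median of all tested probes was 1.28 in that scaling, and 11134 of 17765 were called higher.

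Of 13 complex I assembly factor genes tested, 8 rose, 1 fell and 4 did not pass, with a median of 0.91, beside 31.5% higher and 21.0% lower over all probes. Only 5 of them were well above background on every array, of which 4 rose and 1 fell. Ndufaf4 rose by 1.34, Acad9 by 1.30 and Ndufaf7 by 1.13, all of them proteins needed to build the complex. Timmdc1, named after its value was seen and known to take part in building the membrane arm, lay at -0.72 (limma, adjusted p = 0.0416). It lay at -0.66 with quantile normalization, where it did not pass. In spike-in scaling it lay at 0.56, where the median of all tested probes was 1.28. With normexp correction under the main scaling 3 of 13 rose and 1 fell, with a median of 0.00, and Acad9 at 0.51 did not pass. In that setting 2226 of the 17765 tested probes were called higher and 6007 lower, with a median of -0.525.

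Most genes for making and handling mitochondrial RNA were too dim in control EVs for a count of the list to bear on its direction. Of 20 tested, 7 were well above background on every array, of which 3 rose, 1 fell and 3 did not pass, with a median of 0.43, beside 32.5% higher and 30.1% lower of all such probes. Pnpt1, a polynucleotide phosphorylase of mitochondria, rose by 2.27 ± 0.33 (adjusted p = 0.000507), and Mterf3, of the mitochondrial transcription termination factor family, by 1.34 ± 0.22 (adjusted p = 0.00117). Their probes were well above background on 2 and 1 of the 4 control arrays. With normexp correction under the main scaling they lay at 0.38 and -0.21 and did not pass. The median of all tested probes was -0.525 with that correction. Supv3l1, the RNA helicase that works with Pnpt1, was well above background on none of the control arrays. It thus met the filter through PBS-treated arrays alone. With the processed signal it was at least 1.13-fold higher. With normexp correction under the main scaling it lay at -0.53, near that median of all probes, and did not pass. Named after their values were seen, the transcription and packaging factor Tfam rose by 1.44 ± 0.41 (adjusted p = 0.0174) and lay at 0.33 with that correction, where it did not pass. The mitochondrial RNA polymerase gene Polrmt differed by -0.82 ± 0.55 (adjusted p = 0.237) and Lrpprc, which stabilises mitochondrial messenger RNA, by 0.43 ± 0.23 (adjusted p = 0.149).

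Of 7 genes tested for copying mitochondrial DNA, 3 were higher, 2 lower and 2 did not pass, with a median of 0.01, beside 31.5% higher and 21.0% lower over all probes. The lower calls depended on the setting. With quantile normalization, in the deposited table and with normexp and quantile normalization 3 were higher and 0 lower. With normexp correction under the main scaling 2 were higher and 4 lower, with a median of -0.73. Over all tested probes that correction gave a median of -0.525, with 2226 of 17765 called higher and 6007 lower. Top1mt, a topoisomerase, rose by 0.88, and Dguok, which makes precursors for DNA, by 0.98. With that correction Top1mt lay at 0.02 and did not pass. Twnk, the helicase of mitochondrial DNA, fell by 2.13 ± 0.32 (adjusted p = 0.000593), with a probe well above background on 2 arrays of each group, and lay at -1.56 with quantile normalization (adjusted p = 0.0516) and -0.43 in the deposited table (adjusted p = 0.0604). Polg, its polymerase, lay at -1.40 ± 0.28 (limma, adjusted p = 0.00301, chosen after its values were seen). It lay at -1.21 with quantile normalization (limma, adjusted p = 0.0585) and at -0.12 in spike-in scaling. The median of all tested probes was 1.28 in that scaling.

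**Figure D4:**
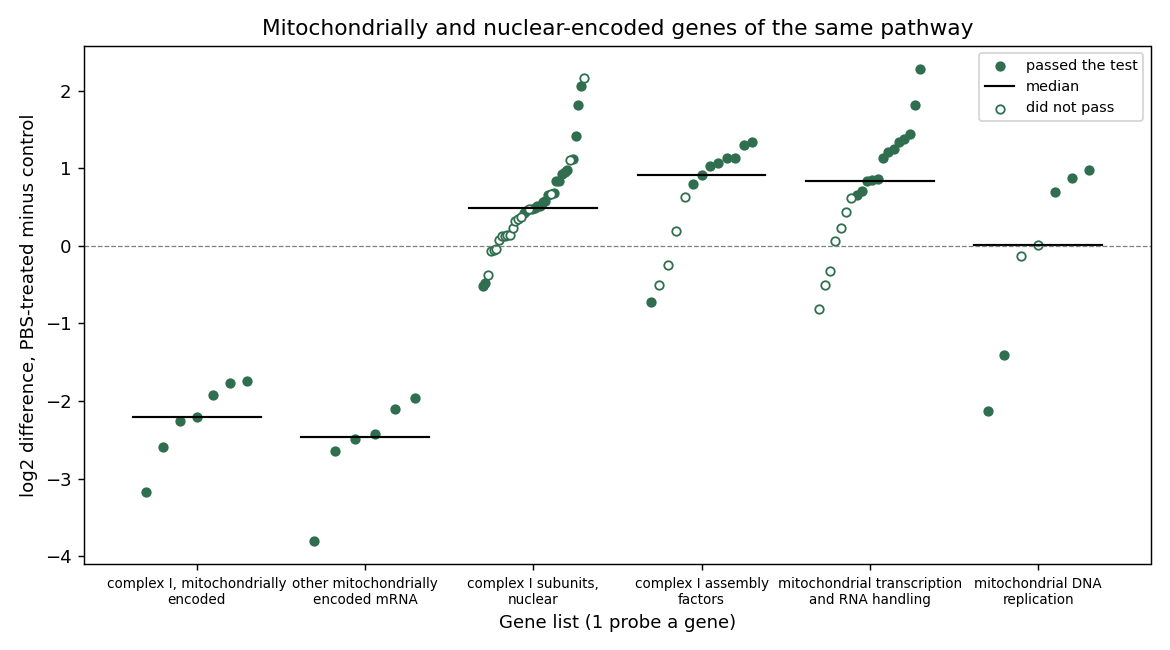
Log2 difference (PBS-treated minus control) of the tested genes of 6 lists, 1 probe a gene, with the median of each list as a line. Filled points passed an adjusted p of 0.05 in limma. The 7 ND transcripts and the 6 other mitochondrially encoded messenger RNAs lie at or below -1.74, while the nuclear lists have medians between 0.01 and 0.91.

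The nuclear-encoded genes with profiles most like the mean of the 7 ND probes over the 9 arrays were Exog (Pearson r = 0.999), Scrib, Rflna, Ftl2-ps and Ptgds, with r between 0.998 and 0.999 and given as a description. Exog, a nuclease of the inner mitochondrial membrane, fell by 3.74 ± 0.21 (log2, SE, adjusted p = 3.98e-06). The arrays share the group difference, and the correlation of Exog with the ND mean within groups was 0.96.

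Facts of the whole series bear on the values above. Of the 55681 probes, 12584 to 19233 were well above background per array, with the lowest counts in control replicates 3 and 4, and no spot was saturated. Of 9 fibroblast markers 8 were tested, and 3 of these (Pdgfra, Fn1 and Col1a1) fell, 0 rose and 5 did not pass. With slide as a block 6 of the 8 fell, while the ND probes had 7 of 7 calls and a median of -2.23. That block gave 5996 of 17765 probes called lower. The summed level of the 8 was 13.8 to 15.3 in PBS-treated EVs and 16.7 to 21.5 in control EVs, relative to the percentile. None of 4 epithelial markers and none of 2 erythroid markers on the array was tested. Of 4 endothelial markers 2 were tested (Kdr and Pecam1) and both fell, with sums of 0.09 to 0.13 in PBS-treated EVs and 0.23 to 0.38 in control EVs. Of 7 leukocyte markers 3 were tested, of which Cd14 rose and Itgam and Csf1r fell, with sums of 1.05 to 2.05 in PBS-treated EVs and 2.09 to 3.02 in control EVs. Cdh5, Tek, Cd68, Adgre1 and Lyz2 were not well above background on any array. The vesicle tetraspanin Cd63 rose by 0.65, and Cd9 differed by 0.53 (limma, adjusted p = 0.175). Cd81 fell by 0.43 and lay at 0.84 in spike-in scaling, where the median of all tested probes was 1.28. The part of these shifts in the ND values was not tested.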

How the data were processed

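Total RNA of EVs was labelled with cyanine 3 and hybridised to 1-colour arrays, and the authors quantified the spots (per the file headers, with Agilent Feature Extraction 10.7.3.1). The deposited scanner files hold intensity on a linear scale and marks for each spot. A deposited table holds log2 values processed by the authors, with normalization not given in the sources used here. Each of its columns ranked probes as the mean signal of that array did (Spearman 1) and had a median of 5.98, so direction is settled and centring stays unknown. It served as an alternative.

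Control and non-uniform spots (3 to 29 per array) were dropped and spots of a probe averaged. Log2 of the processed signal was set relative to the 75th percentile of each array over the 8422 probes that rose well above background on every one of 9 arrays. Probes well above background on at least 4 arrays (17765) were fitted by probe in limma 3.58.1 (R 4.3.3, lmFit and eBayes, two-sided, Benjamini-Hochberg), with Python 3.11.15, pandas 2.3.3, numpy 2.4.6 and matplotlib 3.10.9 for tables and figures. List genes took the probe with the highest mean. In data simulated from these arrays, 29 of 92 probes changed by 1 on the log2 scale and 76 of 108 changed by 2 were recovered. There were 7 false calls among 17765 probes. Far fewer probes were changed there than the 9313 called in the data, so these rates do not carry over to the reported fit.

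The ND transcripts, gene lists and tests were chosen with earlier results of these data known. Named genes were all mitochondrially encoded messenger RNAs, up to 3 called genes of smallest p from each other list and the 5 most alike profiles, and others are said to be chosen later. The values of 1 gene among those called are not reported here. RefSeq accessions matched 26413 probes. Of all probes 3828 took another symbol, by accession or by a unique synonym. Markers were tetraspanins and those of fibroblast, epithelial, endothelial, leukocyte and erythroid cells. For a probe below that mark on every array of a group, a bound was computed in place of a fold. It sets the mean of the bright group against the mean of, per dim array, the dimmest signal well above background or the signal of the probe, whichever was higher. Replicate numbers were not used to pair arrays in the main fit, which held no term for slide either. Deviations of equally numbered arrays correlated at 0.69, 0.72, -0.52 and 0.72. Replicates 1, 2 and 4 of both groups shared a slide, while replicate 3 was on slide 1 in PBS-treated and on slide 2 in control EVs. Alternatives were other scalings, normexp correction (offset 50), the deposited table, filters, slide and replicate blocks, each slide alone, array weights, a robust trend, the methods' t-test and each array left out. The number of arrays limits the precision.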

Additional observations from a re-analysis of the deposited data

How the results depend on the processing

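All 7 ND transcripts stayed lower in PBS-treated EVs under each of 27 alternatives, and 182 of the 189 values passed the threshold. The 7 that did not were ND1 and ND6 in spike-in scaling, and ND1 (-0.75), ND2 (-1.03), ND4L (-0.56), ND5 (-1.08) and ND6 (-0.58) with no scaling between arrays, where 2 of 7 passed. The cause was not tested. The number of called probes on the array was 6190 with the percentile over all probes and 5266 among probes well above background on all 9 arrays, for which fewer probes were tested, against 9313. Spike-in scaling moved the share of higher calls among all called probes to 92.5%, no scaling to 92.1%, the percentile over all probes to 72.4% and normexp correction under the main scaling to 27.0%, against 5590 of 9313 calls. With the replicate number as a block, 9268 probes and 7 of 7 ND probes were called, and the block changed no call of an ND transcript. With any 1 array left out, 8277 to 9170 probes and 7 of 7 ND probes were called. Of the 21 ND pairs, 0 passed with normexp correction under the main scaling, 4 with normexp and quantile normalization, 0 with any 1 array left out and 0 without control replicates 3 and 4, where the smallest possible p was 0.0476 before adjustment. Among the pairs that passed, the sign of ND2 against ND4 turned with normexp correction under the main scaling and in the deposited table. The nuclear-encoded complex I subunit genes called numbered 8 with the percentile over all probes, 9 with no filter on dim probes, 34 with no scaling and 38 in spike-in scaling, against 21. With slide as a block 12285 probes were called.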
